A study of Canis lupus familiaris with 4 samples.

Results

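HSF1, the master transcription factor of the heat shock response, and 9 of the chaperone and stress genes that it is known to control were followed across 4 Affymetrix arrays of MDCKII cells, a dog kidney line that grows as polarised epithelium. They were selected on what is known of HSF1 and its targets and with earlier results of these 4 arrays in view, so their differences are given as a description. The genes were taken by the symbol that the platform annotation gives each probe set, which found 10 of 10 genes among 15115 with a symbol, and 27 probe sets in all. A further 2 probe sets carry both HSP90AA1 and a second symbol and were kept apart. The arrays were labelled KD hypoxia, WT hypoxia, KD normoxia and WT normoxia, with 1 array each, where KD stands for knockdown of HIF1A, the oxygen-regulated subunit of hypoxia-inducible factor, and WT for cells with normal HIF1A. All cells had 24 h of normoxia and then a further 24 h in hypoxia or normoxia. Neither the knockdown method, the oxygen level nor whether the KD cells are a single clone is given in the sources used here.

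In resting cells HSF1 is held inactive by the chaperones themselves. Unfolded proteins draw these chaperones away, and HSF1 then forms trimers, binds heat shock elements and turns on genes for small heat shock proteins, the HSP70 and HSP90 machines and their partners. Epithelial cells of the kidney use the same system against heat, heavy metals, loss of ATP and proteasome failure. ZFAND2A, also called AIRAP, is a zinc finger protein that associates with the proteasome and that arsenite induces in mouse and human cells.

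No group has a second array, so the differences cannot be set against replicate error, no p-value is given, and precision is limited by the number of arrays. Values are the linear intensities that the authors deposited. Differences are of log2(intensity + 16), which understates the change of dim genes. Where a gene has several probe sets, the one with the highest mean log2 value stands for it. A probe set at or above an intensity of 46.3, the median of all values, is called above the floor, and all 10 genes were represented by a probe set above it in all 4 arrays. Median intensities of the arrays lay between 45.6 and 47.1. Of 10 epithelial marker genes, 9 were above the floor in all 4 arrays, while CDH1, the gene of E-cadherin, read 17.8 to 41.2 and was below it in each. Of these markers ESRP1, an epithelial splicing factor, passed 1.5-fold, at -0.62 for KD minus WT in normoxia, with -0.25 in its other probe set. That is 1 of 9 epithelial markers above the floor, or 11.1%, against 6.58% of all genes above it. Of 6 fibroblast, 5 blood and 5 endothelial markers, 1, 0 and 2 were above the floor in all 4 arrays, the endothelial genes being CDH5, at 104 to 178, and KDR. Summed intensities over the arrays were 36725 to 38332 for the epithelial, 124 to 135 for the fibroblast, 132 to 163 for the blood and 195 to 296 for the endothelial markers, and their part in the differences was not tested.

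The targeted gene hardly followed the knockdown label. HIF1A read 625 in the array labelled KD hypoxia, 675 in WT hypoxia, 3435 in KD normoxia and 3651 in WT normoxia. KD minus WT was -0.11 in hypoxia and -0.09 in normoxia, and hypoxia minus normoxia was -2.43 in KD and -2.41 in WT cells. A dimmer HIF1A probe set was above the floor in the 2 arrays labelled normoxia only. It was at -0.21 and 0.18 for KD minus WT in hypoxia and normoxia, and at -2.19 and -1.80 for hypoxia minus normoxia in KD and WT cells. HIF1A thus differed by the oxygen label and hardly by the genotype label, and every direction given below follows the labels as they stand. Throughout, KD hypoxia, WT hypoxia, KD normoxia and WT normoxia mean the array labelled so. If the arrays labelled WT hypoxia and KD normoxia changed places, the values given as KD minus WT would become those of hypoxia minus normoxia and the reverse, while the difference of the responses would keep its value.

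ZFAND2A and HSPB1 varied the most among the 10 genes and ran opposite to each other. ZFAND2A spanned 4.18-fold over the 4 arrays and HSPB1 2.62-fold on the scale of log2(intensity + 16). HSPH1 spanned 2.14-fold, DNAJB1 1.58-fold and HSF1 1.33-fold, and the other 5 genes stayed within 1.18-fold to 1.22-fold. The median range over the 4 arrays was 0.35 (log2) for the 10 genes and 0.37 for all 9834 genes above the floor.

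**Figure D1:**
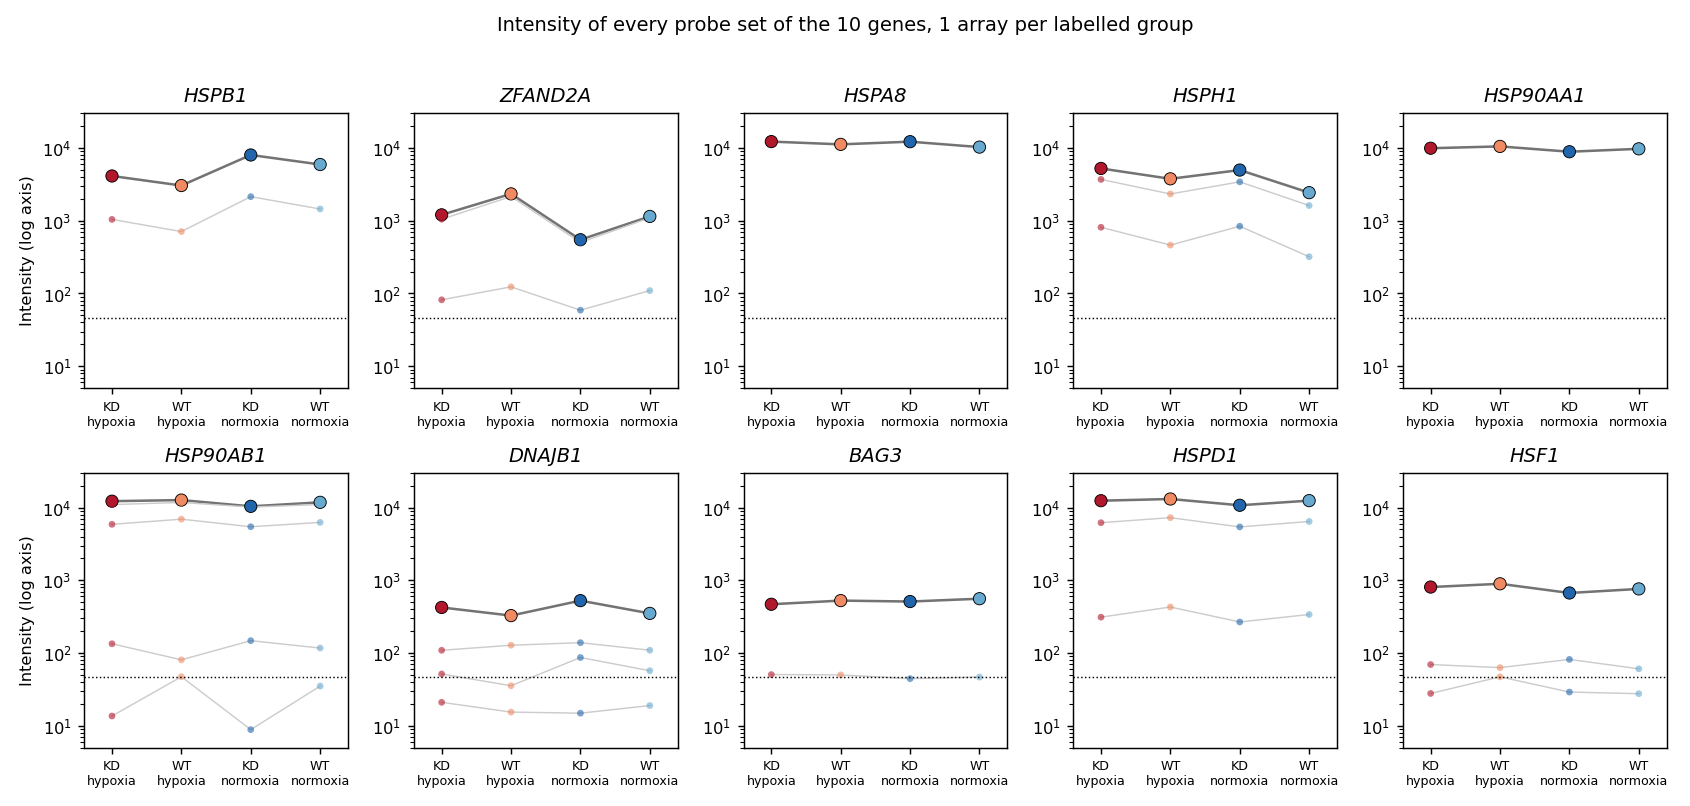
Intensity (log axis) of each probe set of the 10 genes in the 4 arrays, labelled KD hypoxia, WT hypoxia, KD normoxia and WT normoxia from left to right. Large outlined points are the probe set that represents the gene, small points its other probe sets, lines join the values of 1 probe set, and the dotted line is the floor at 46.3. ZFAND2A is highest in WT hypoxia at 2342 and lowest in KD normoxia at 548, and HSPB1 is lowest in WT hypoxia at 3048 and highest in KD normoxia at 8015.

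HSF1 mRNA itself differed little. Its brightest probe set read 808 in KD hypoxia, 896 in WT hypoxia, 669.9 in KD normoxia and 762 in WT normoxia. Both arrays labelled hypoxia lay above both labelled normoxia, and within each oxygen condition KD lay below WT. The log2 difference for KD minus WT was -0.15 in hypoxia and -0.18 in normoxia, and for hypoxia minus normoxia 0.26 in KD and 0.23 in WT cells. These values fall inside the middle 95% of all genes in each comparison. A dimmer HSF1 probe set above the floor read 69.6, 63.1, 81.9 and 60.8 in KD hypoxia, WT hypoxia, KD normoxia and WT normoxia, so it had the opposite sign for KD minus WT (0.11 in hypoxia and 0.35 in normoxia) and for hypoxia in KD cells (-0.19). The third probe set was at 27.7 to 47.2, above the floor in 1 array.

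ZFAND2A was lower with the KD label and higher with the hypoxia label, each about 2-fold. It read 1205 in KD hypoxia, 2342 in WT hypoxia, 548 in KD normoxia and 1146 in WT normoxia. WT hypoxia stood highest and KD normoxia lowest, with KD hypoxia and WT normoxia close to each other. For KD minus WT the difference was -0.95 in hypoxia, which is 1.93-fold lower and rank 42 from the lowest of 9834 genes. In normoxia it was -1.04, which is 2.06-fold lower and rank 25 from the lowest. For hypoxia minus normoxia it was 1.11 in KD cells (2.16-fold, rank 34 from the highest) and 1.02 in WT cells (2.03-fold, rank 52 from the highest). A second probe set read 1050.3, 2154, 502 and 1098 in KD hypoxia, WT hypoxia, KD normoxia and WT normoxia and gave -1.02 and -1.10 for KD minus WT in hypoxia and normoxia and 1.04 and 0.96 for hypoxia minus normoxia in KD and WT cells. The third, dimmer probe set read 81.9, 123, 59.0 and 109.7 in the same arrays. It kept all 4 signs with smaller sizes, -0.51 and -0.74 for KD minus WT in hypoxia and normoxia and 0.38 and 0.15 for hypoxia minus normoxia in KD and WT cells.

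HSPB1 encodes HSP27, a small heat shock protein that forms large oligomers, holds unfolding proteins and binds the actin cytoskeleton. It read 4123 in KD hypoxia, 3048 in WT hypoxia, 8015 in KD normoxia and 5928 in WT normoxia. Both arrays labelled hypoxia lay below both labelled normoxia, and KD lay above WT in each oxygen condition, so the order of the 4 arrays was the reverse of that of ZFAND2A. Hypoxia minus normoxia was -0.96 in KD cells (1.94-fold lower, rank 112 from the lowest of 9834) and -0.96 in WT cells (1.94-fold lower, rank 68 from the lowest). KD minus WT was 0.43 in both hypoxia and normoxia, or 1.35-fold higher in each. The second HSPB1 probe set read 1043, 709.9, 2144 and 1451 in KD hypoxia, WT hypoxia, KD normoxia and WT normoxia. Its differences were -1.03 and -1.01 for hypoxia minus normoxia in KD and WT cells, and 0.55 and 0.56 for KD minus WT in hypoxia and normoxia.

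Within the HSP70 system, HSPH1 differed most by the genotype label. HSPH1 encodes HSP105, of the HSP110 family, which reloads HSP70 with ATP by exchanging its nucleotide. It read 5231 in KD hypoxia, 3769 in WT hypoxia, 4972 in KD normoxia and 2432 in WT normoxia. Both KD arrays lay above both WT arrays, and WT normoxia was the lowest by a wide gap. KD minus WT was 0.47 in hypoxia (1.39-fold) and 1.03 in normoxia (2.04-fold, rank 82 from the highest of 9834). Hypoxia minus normoxia was 0.07 in KD cells and 0.63 in WT cells (1.55-fold). The other 2 HSPH1 probe sets gave 0.66 and 0.79 for KD minus WT in hypoxia, 1.07 and 1.35 in normoxia, 0.11 and -0.05 for hypoxia minus normoxia in KD cells, and 0.52 and 0.51 in WT cells.

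DNAJB1 encodes an HSP40 co-chaperone that delivers clients to HSP70 and starts its ATP cycle. Its brightest probe set read 424 in KD hypoxia, 327 in WT hypoxia, 526 in KD normoxia and 351 in WT normoxia. Both KD arrays again lay above both WT arrays. KD minus WT was 0.36 in hypoxia and 0.56 in normoxia, both under 1.5-fold, and hypoxia minus normoxia was -0.30 in KD and -0.10 in WT cells. A second probe set above the floor in all arrays read 109.2, 128, 139 and 109.5 in KD hypoxia, WT hypoxia, KD normoxia and WT normoxia, with the opposite sign for KD minus WT in hypoxia (-0.20) and for hypoxia in WT cells (0.20). The third, above the floor in 3 arrays, was at 35.6 to 86.9, and the fourth was below it in all 4.

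HSPA8, the constitutive cytosolic HSP70 that does most housekeeping folding, has 1 probe set here. It read 12239.6 in KD hypoxia, 11218 in WT hypoxia, 12210.4 in KD normoxia and 10287 in WT normoxia. The 2 KD arrays were the highest, in the same order of arrays as HSPH1, but with much smaller differences: 0.13 and 0.25 for KD minus WT in hypoxia and normoxia, and 0.0034 and 0.12 for hypoxia minus normoxia in KD and WT cells. That probe set is of a kind that can match several transcripts, so closely related HSP70 sequences may contribute. The dog gene listed under the symbol HSP70 (synonym HSPA1), looked up by its dog name after the lists had been written, read 413 in KD hypoxia, 365 in WT hypoxia, 518 in KD normoxia and 376 in WT normoxia. Its order of arrays was that of DNAJB1, with KD minus WT at 0.17 in hypoxia and 0.45 in normoxia and hypoxia minus normoxia at -0.31 in KD and -0.04 in WT cells. The HSP70 probe set is of the same kind as that of HSPA8. So are others used here, such as those standing for DNAJB1 and HSP90AB1.

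BAG3, which couples HSP70 and the small heat shock protein HSPB8 to autophagy of damaged proteins and is a classical HSF1 target, was among the steadiest. It read 469 in KD hypoxia, 526 in WT hypoxia, 511 in KD normoxia and 559 in WT normoxia. KD was below WT and hypoxia below normoxia in each pair, by -0.16 and -0.13 for KD minus WT in hypoxia and normoxia and by -0.12 and -0.08 for hypoxia minus normoxia in KD and WT cells. Its second probe set lay at 44.5 to 50.7, around the floor.

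HSP90AA1 and HSP90AB1, the stress-inducible and the constitutive cytosolic HSP90, which mature kinases and steroid receptors and whose clients include HSF1 and HIF1A, differed by less than 1.5-fold in all 4 comparisons by the probe sets that stand for them. HSP90AA1 read 9923 in KD hypoxia, 10513 in WT hypoxia, 8883 in KD normoxia and 9737 in WT normoxia. Its KD minus WT difference was -0.08 in hypoxia and -0.13 in normoxia, and hypoxia minus normoxia was 0.16 in KD and 0.11 in WT cells. HSP90AB1 read 12239.8, 12679, 10391 and 11803 in KD hypoxia, WT hypoxia, KD normoxia and WT normoxia, with KD minus WT at -0.05 and -0.18 in hypoxia and normoxia and hypoxia minus normoxia at 0.24 and 0.10 in KD and WT cells. Both genes had the same order of arrays as ZFAND2A and HSF1, with WT hypoxia highest and KD normoxia lowest. Of the other HSP90AB1 probe sets, 2 bright ones kept all 4 signs. A dim one (80.8 to 148) had all 4 signs reversed, at 0.64 and 0.30 for KD minus WT in hypoxia and normoxia and at -0.13 and -0.46 for hypoxia minus normoxia in KD and WT cells, and the last was above the floor in 1 array.

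HSPD1, the mitochondrial HSP60 chaperonin, read 12425.5 in KD hypoxia, 13114 in WT hypoxia, 10751 in KD normoxia and 12455 in WT normoxia. KD lay below WT by -0.08 in hypoxia and -0.21 in normoxia, and hypoxia lay above normoxia by 0.21 in KD and 0.07 in WT cells. All 3 HSPD1 probe sets had these 4 signs, the dimmest with -0.44 and -0.32 for KD minus WT in hypoxia and normoxia. HSPE1, its partner HSP10, read 10344, 11171, 9349.8 and 10525 in KD hypoxia, WT hypoxia, KD normoxia and WT normoxia. The same order of arrays thus held for the chaperonin and its lid, and HSPE1 differed the most, by -0.17, for KD minus WT in normoxia.

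Of the 10 genes ZFAND2A, HSPB1 and HSPH1 passed 1.5-fold in at least 1 comparison. For KD minus WT in hypoxia 1 of 10 genes (ZFAND2A, lower) differed at least 1.5-fold, where 5.33% of 9834 genes did. In normoxia 2 of 10 did (HSPH1 higher, ZFAND2A lower), against 6.58% of all genes. For hypoxia minus normoxia 2 of 10 did in KD cells (ZFAND2A higher, HSPB1 lower), against 7.45% of all genes. In WT cells 3 of 10 did (ZFAND2A and HSPH1 higher, HSPB1 lower), against 6.21%. The genes were chosen with values of these arrays known, so nothing is read from setting these shares side by side. At 2-fold the counts were 0 of 10 genes (0.875% of all genes) for KD minus WT in hypoxia and 2 of 10 (1.18%) in normoxia, HSPH1 and ZFAND2A. For hypoxia minus normoxia ZFAND2A alone passed 2-fold, 1 of 10 in KD cells (1.56%) and 1 of 10 in WT cells (1.17%). The median difference of the 10 genes was -0.06 (all genes -0.0099) for KD minus WT in hypoxia, -0.13 (-0.011) in normoxia, 0.12 (0.016) for hypoxia minus normoxia in KD and 0.11 (0.014) in WT cells. With the median over all probe sets of a gene, the KD minus WT medians turned to 0.0092 in hypoxia and 0.079 in normoxia.

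**Figure D2:**
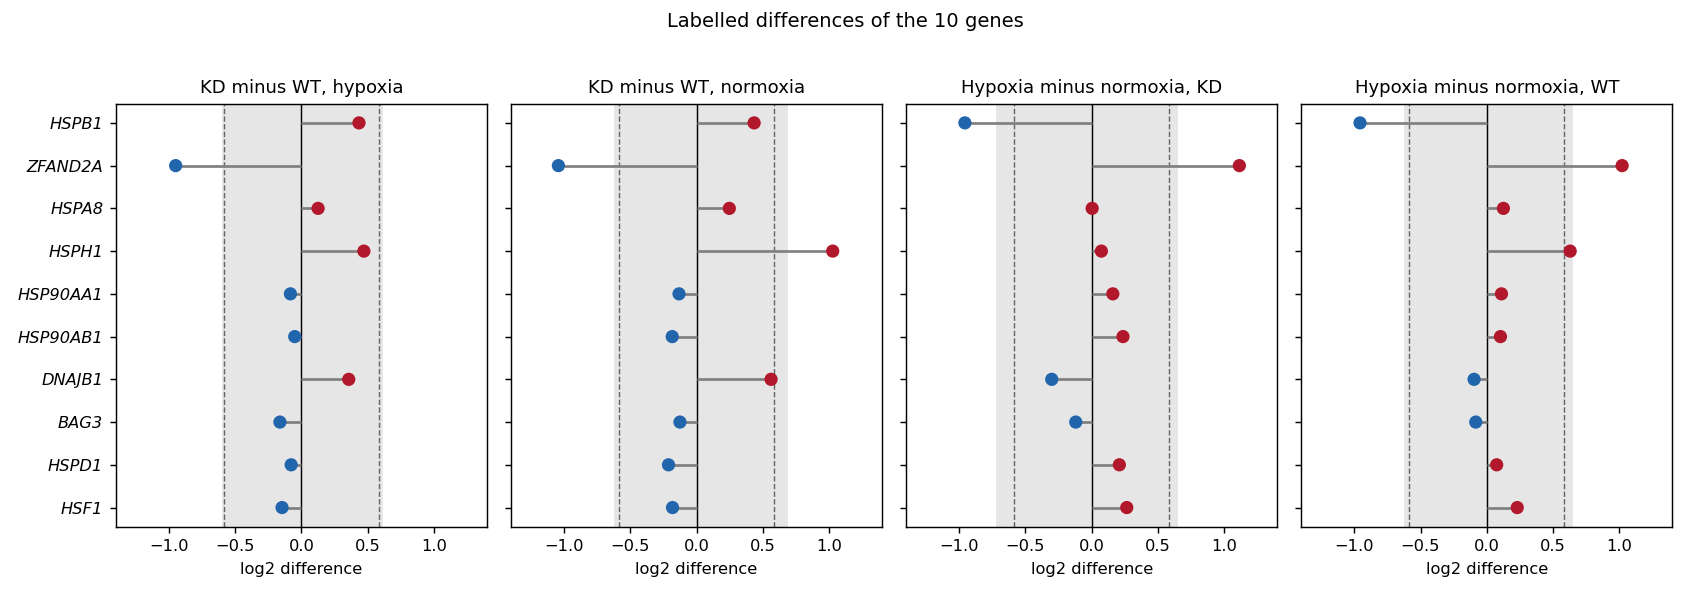
Log2 differences of the 10 genes in the 4 labelled comparisons, 1 panel each, from the representing probe sets. Grey bands hold the middle 95% of 9834 genes, dashed lines mark 1.5-fold, red points are higher and blue points lower. ZFAND2A lies outside the band in all 4 panels, HSPB1 in the 2 panels of hypoxia minus normoxia, and HSPH1 in that of KD minus WT in normoxia.

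The difference between hypoxia and normoxia was also set side by side in KD and WT cells. This response in KD cells minus that in WT cells passed 1.5-fold for 0 of the 10 genes, where it did for 7.55% of all genes, and 2-fold for 0 of 10, where 1.57% of all genes did. It was -0.56 for HSPH1 (percentile 4.70 of all genes) and -0.41 to -0.56 over its 3 probe sets. It was 0.09 for ZFAND2A (0.079 to 0.24 over its 3 probe sets) and -8.8e-05 for HSPB1 (-0.013 in its second probe set). By the brightest probe sets both genes thus differed almost equally in the pair labelled KD and in the pair labelled WT. These pairs share no array. These differences were not tested.

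**Figure D3:**
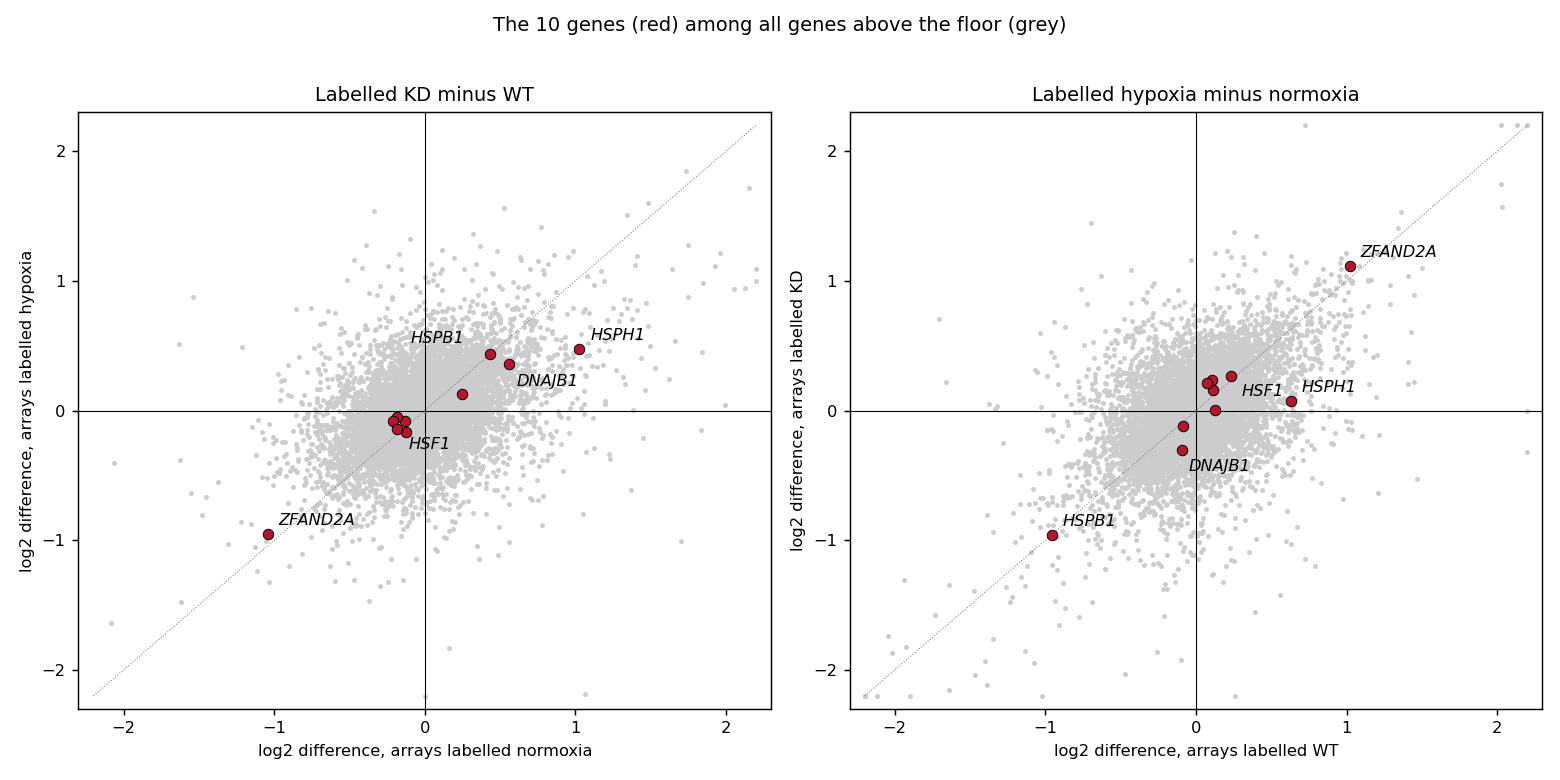
Log2 difference of every gene above the floor (grey, 9834 genes) and of the 10 genes (red). In the left panel the y axis is KD minus WT in hypoxia and the x axis KD minus WT in normoxia, and in the right panel the y axis is hypoxia minus normoxia in KD and the x axis that in WT cells. The 3 genes (left) and 18 genes (right) beyond 2.2 are drawn at that edge. On the dotted line both differences are equal, and ZFAND2A lies near it in both panels and HSPB1 in both, while HSPH1 lies below it in both.

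Likeness was taken as the Euclidean distance between log2 values centred on each gene's mean over the 4 arrays. The 8037 candidates were above the floor in all arrays, and genes with no symbol or one starting with LOC were left out. Among them the 5 most like HSPB1 were SNX25, CRIPT, DUSP10, MUC16 and CARHSP1, at 0.077 to 0.21. SNX25, a sorting nexin, read 686 in KD hypoxia, 514 in WT hypoxia, 1282 in KD normoxia and 1006 in WT normoxia. MUC16, a membrane mucin, read 353, 276, 769.9 and 606 in the same arrays. The 5 most like ZFAND2A were ARHGEF39, PID1, GCLC, ARHGAP9 and IL18BP, at 0.48 to 0.63, so that no candidate came as close to ZFAND2A as the first 5 did to HSPB1. The distance is not scaled for the range of a gene, which was wider for ZFAND2A than for HSPB1. GCLC, the catalytic subunit of the enzyme that begins glutathione synthesis, read 821 in KD hypoxia, 2316.5 in WT hypoxia, 336 in KD normoxia and 1068 in WT normoxia. Among the 10 genes the nearest to HSPB1 was DNAJB1 (distance 0.76, rank 649 of 8037) and the nearest to ZFAND2A was HSF1 (1.17, rank 770 of 8037). HSPB1 and ZFAND2A were 2.48 apart. These likenesses rest on 4 arrays and describe them only.

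Further lists covered the wider chaperone network. Of 25 other genes that HSF1 can induce, 19 were above the floor. For KD minus WT, 0 of 19 passed 1.5-fold in hypoxia, and HSPA2, a testis-enriched HSP70 (0.67), and HSPB8, the small heat shock protein partner of BAG3 (0.64), were higher in normoxia, 2 of 19 or 10.5%, against 6.58% of all genes. HSPB8 read 661 in KD hypoxia, 628 in WT hypoxia, 989 in KD normoxia and 629 in WT normoxia, so KD normoxia stood alone. Its second probe set above the floor was at -0.59 and 0.06 for KD minus WT in hypoxia and normoxia, unlike the 0.07 and 0.64 of the brighter one. For hypoxia minus normoxia HSPA4, another HSP110 family member (0.67), and BAG1, which couples HSP70 to the proteasome (0.61), were higher in KD cells, 2 of 19 or 10.5%, against 7.45% of all genes. Their second probe sets above the floor in all arrays were at 0.29 for HSPA4 and 0.35 for BAG1 in KD cells. FKBP4, an HSP90 co-chaperone of steroid receptors (0.63), was higher in WT cells, 1 of 19 or 5.26%, against 6.21%. Its second probe set, dim at 41.8 to 58.8 and above the floor in 3 arrays, was at 0.05 in WT cells. By the brightest probe sets 0 of 19 genes were lower by 1.5-fold in any of the 4 comparisons. HSPA4 and BAG1 were also at 0.55 and 0.52 in WT cells, and FKBP4 at 0.54 in KD cells. The list's medians were 0.0047 and -0.025 for KD minus WT in hypoxia and normoxia and 0.039 and 0.13 for hypoxia minus normoxia in KD and WT cells.

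Of 17 other HSP70 and HSP90 co-chaperones only DNAJB5 passed 1.5-fold in any comparison, at 0.99 for KD minus WT in normoxia. That is 5.88% of the list, against 6.58% of all genes in that comparison. DNAJB5 was below the floor in both WT arrays, so the size is not measured. No difference among 11 subunits of prefoldin and of the cytosolic chaperonin TRiC, which folds actin and tubulin, or among 14 chaperones of the endoplasmic reticulum reached 1.5-fold. The medians of the last were 0.11 and 0.13 for KD minus WT in hypoxia and normoxia, with 11 of 14 genes above 0 in each. The medians of all genes were -0.0099 and -0.011, and the share of all genes above 0 was not counted. Of 12 mitochondrial chaperones and proteases, HSPA9, the mitochondrial HSP70 that pulls in imported proteins, was at 0.67 and 0.41 for hypoxia minus normoxia in KD and WT cells, and its other 2 probe sets at 0.41 and 0.76 in KD cells. LONP1, the matrix protease, was at 0.64 for KD minus WT in normoxia and -0.71 for hypoxia minus normoxia in KD cells, but at 0.23 and -0.21 in its second probe set. These 12 genes thus held 2 past 1.5-fold for hypoxia in KD cells, or 16.7%, against 7.45% of all genes. For KD minus WT in normoxia they held 1, or 8.33%, against 6.58%. Of 5 other small heat shock protein genes above the floor, HSPB8 among them, CRYAA was at 0.68 for hypoxia minus normoxia in WT cells, below the floor in both arrays labelled normoxia.

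Of 9 other heat shock factors and HSF1 regulators above the floor, HDAC6 was at -0.65 for KD minus WT in hypoxia. That is 1 of 9 or 11.1%, against 5.33% of all genes. HDAC6 lay below the floor in both KD arrays, so the size is not measured. VCP, an ATPase that extracts ubiquitinated proteins, was at 0.39 and 0.47 for hypoxia minus normoxia in KD and WT cells. Of 6 other genes with an AN1 zinc finger, the fold that ZFAND2A carries, 0 reached 1.5-fold in any of the 4 comparisons. Their medians were -0.14 and -0.29 for KD minus WT in hypoxia and normoxia, and 0.011 and 0.0019 for hypoxia minus normoxia in KD and WT cells. ZFAND2B, the nearest by name, was at -0.33 and -0.50 for KD minus WT in hypoxia and normoxia, but at -0.014 and -0.18 for hypoxia minus normoxia in KD and WT cells, where ZFAND2A was at 1.11 and 1.02. A second ZFAND2B probe set above the floor in all arrays was at -0.45 and -0.15 for KD minus WT. For hypoxia minus normoxia it was at -0.0008 in KD cells and, with the opposite sign to the first, at 0.29 in WT cells. Of 34 proteasome genes 1 passed 1.5-fold, the inhibitor subunit PSMF1 at 0.73 for KD minus WT in normoxia. That is 2.94% of the list, against 6.58% of all genes in that comparison.

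Genes of the response to metals and electrophiles, a class of stress that also induces ZFAND2A, had the signs of ZFAND2A in all 4 comparisons by their brightest probe sets. Of 7 genes above the floor 7 were below 0 for KD minus WT in hypoxia and in normoxia. Their medians were -0.87 and -0.53, against -0.0099 and -0.011 for all genes. For hypoxia minus normoxia 7 were above 0 in KD and in WT cells. The medians there were 0.39 and 0.11, against 0.016 and 0.014 for all genes. Some of these differences were small. GCLM was at -0.07 and -0.02 for KD minus WT in hypoxia and normoxia, and MT2A at -0.13 and -0.15. For hypoxia minus normoxia in KD and WT cells GCLM was at 0.06 and 0.10, and MT2A at 0.13 and 0.11. Past 1.5-fold for KD minus WT were 4 of 7 in hypoxia (57.1%, against 5.33% of all genes) and 3 of 7 in normoxia (42.9%, against 6.58%), all lower. For hypoxia minus normoxia 2 of 7 were past it in KD cells (28.6%, against 7.45%) and 2 of 7 in WT cells (28.6%, against 6.21%), all higher. The largest were the metallothionein MT1E at -1.64 and -2.09 for KD minus WT in hypoxia and normoxia, GCLC at -1.48 and -1.62, and the quinone reductase NQO1 at -0.87 and -1.15. GCLC was also at 1.25 and 1.11 for hypoxia minus normoxia in KD and WT cells, but MT1E was at 0.45 and 0.0046. The thioredoxin reductase TXNRD1 was at 0.60 for hypoxia minus normoxia in KD cells. OSGIN1, at -0.88 for KD minus WT in hypoxia and 0.81 for hypoxia minus normoxia in WT cells, is included in the counts and medians above. It was above the floor in 1 array only, WT hypoxia, where it read highest. It thus entered the list through that array, and its size is not measured. HMOX1, the heme oxygenase that arsenite and heat also induce, was below the floor in all 4 arrays. This list was written with the values of some of its genes in these arrays known, so its direction is not independent evidence.

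**Figure D4:**
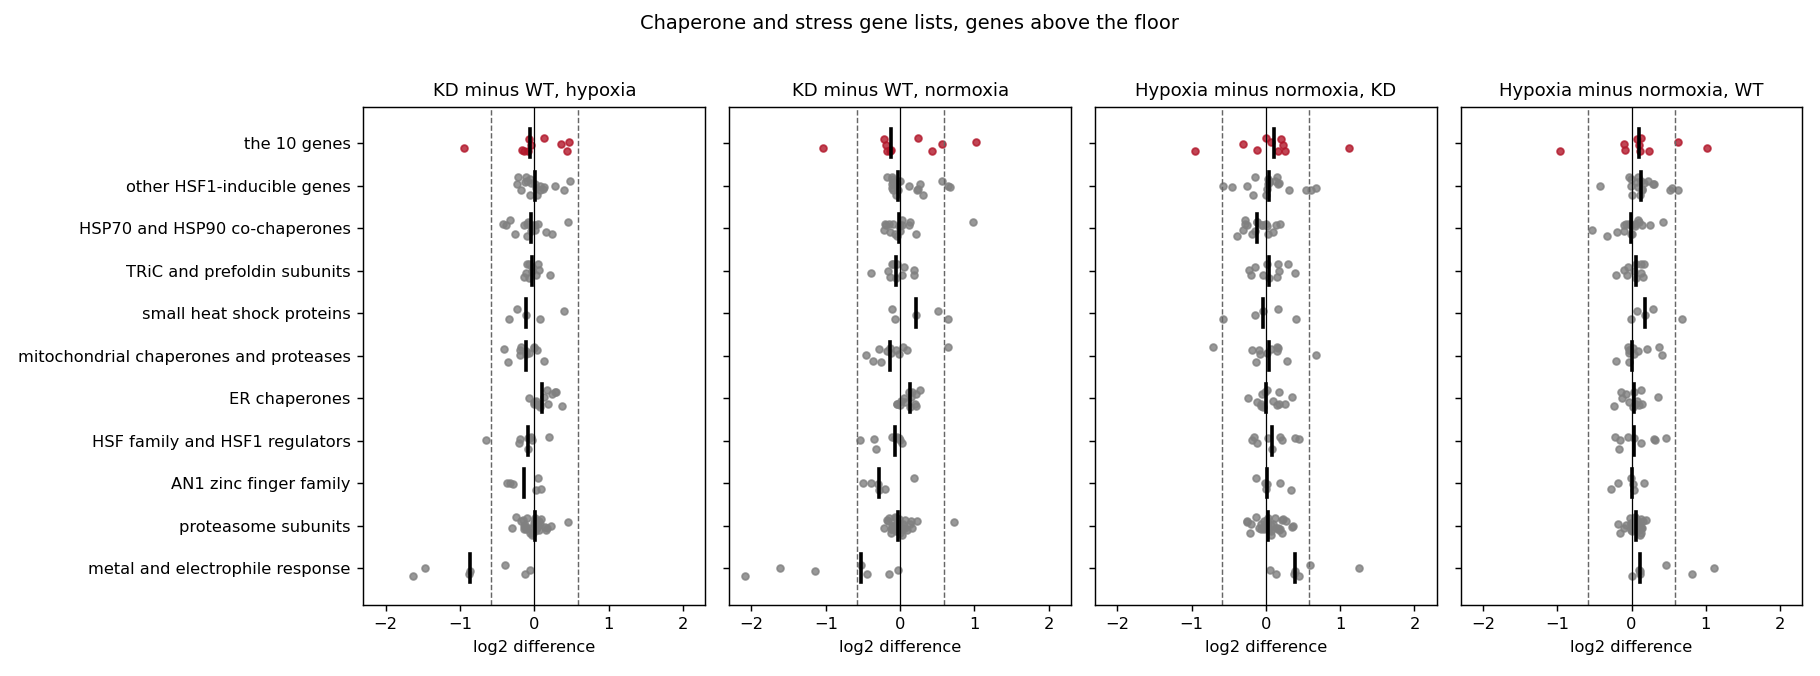
Log2 differences of single genes above the floor (points) in the 4 labelled comparisons, for the 10 genes (red) and 10 further lists (grey). Black bars are list medians and dashed lines mark 1.5-fold. MT1E reaches -1.64 and -2.09 for KD minus WT in hypoxia and normoxia.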

How the data were processed

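Total RNA (100 ng) was labelled with biotin and hybridised to Affymetrix dog arrays, per the labels' protocols. The authors deposited 1 linear intensity per probe set for 4 arrays. The software, background correction and scaling of these intensity values are not stated in the labels or the table. Of 42924 probe sets, 29254 had 1 symbol, 439 several and 13231 none in the platform annotation, and the gene IDs of 27 of 27 probe sets of the 10 genes were found in a RefSeq gene table, used for names alone.

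Differences of log2(intensity + 16) were computed in Python 3.11.15, for the 9834 of 15115 genes that reached, in at least 1 array, a floor set at the overall median (5.96 on the log2 scale). Sizes of 1.5-fold and 2-fold were counted. No test was run. The 10 genes and all lists were chosen with earlier results of these data known. The rule for named genes took the 10, HIF1A, up to 4 genes per list with the largest difference, and the 5 genes most like each of HSPB1 and ZFAND2A. Of the list genes the text gives those past 1.5-fold (ESRP1 among the markers), VCP, ZFAND2B, CDH5 and KDR. HSP70, HSPE1, BAG1, TXNRD1, GCLM, MT2A, HMOX1 and CDH1 lay outside the rule and were named after their values were seen. Alternatives were quantile, median and cyclic loess (limma 3.58.1) scaling, pseudocounts of 1 and 64, the median over probe sets, no floor, a floor at the 75th percentile, and 2-fold. Counting was tested on simulated data.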

Additional observations from a re-analysis of the deposited data

Results flagged for a closer look

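By the probe sets that stand for them, the 10 genes had the same sign of difference in both pairs of arrays of each kind. Dimmer probe sets above the floor did not for HSPH1 (-0.046 and 0.51 for hypoxia minus normoxia in KD and WT cells), DNAJB1 and HSF1. Of the other named genes above the floor, 8 had opposite signs in the 2 pairs, and this difference was not tested, since each group has 1 array. For KD minus WT in hypoxia and normoxia, HSPA4 was at 0.0196 and -0.1039, BAG1 at 0.0687 and -0.0253, LONP1 at -0.0083 and 0.6437, and KDR at -0.0936 and 0.0138. For hypoxia minus normoxia in KD and WT cells, HSPA2 was at -0.455 and 0.0916, DNAJB5 at -0.1199 and 0.4208, PSMF1 at -0.2544 and 0.0165, and ESRP1 at 0.2603 and -0.0576. In each of these pairs the value smaller in size is below the robust SD of all genes in that comparison, which was 0.23 to 0.27.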

How the results depend on the processing

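The 8 differences of single genes among the 10 that passed 1.5-fold kept their direction in all 64 recomputed values and their size past 1.5-fold in 63. The exception was HSPH1 for hypoxia minus normoxia in WT cells, at 0.52 with the median over probe sets. Removing the floor or setting it at the 75th percentile only chose which genes were kept. Single-gene values therefore could not change under those settings, though they are counted here. Under the 8 alternatives ZFAND2A ranged from -1.02 to -0.92 and from -1.10 to -0.98 for KD minus WT in hypoxia and normoxia, and HSPB1 from -0.99 to -0.95 and from -0.999 to -0.95 for hypoxia minus normoxia in KD and WT cells. With the median over probe sets 2 of the 10 genes passed 1.5-fold for KD minus WT in hypoxia. By the brightest probe sets 1 of 10 did, and 5.33% of all genes. With the median over probe sets HSF1 took the values of its dimmer probe set. The median of the 10 response differences turned to -0.022 there, against 0.017. Counting 2-fold instead of 1.5-fold left 0 genes for KD minus WT in hypoxia (0.875% of all genes), 1 for hypoxia minus normoxia in KD cells (1.56%) and 1 in WT cells (1.17%). Median centring and cyclic loess each gave 3 genes instead of 2 for KD minus WT in normoxia, where 6.58% of all genes passed without this scaling. Of 400 values of the 10 genes 5 moved, all of DNAJB1 or HSF1 with the median over probe sets, and of 1265 values of other named genes 37 moved. A value counted as moved when it shifted by more than the robust SD of all genes in that comparison, 0.23 to 0.27, since there are no replicates. DNAJB5, CRYAA, HDAC6, PSMF1, OSGIN1, CDH5 and KDR gave no value with a floor at the 75th percentile, nor DNAJB5, HDAC6, IL18BP and CDH5 with the median over probe sets. No paired analysis was possible because each group has 1 array, and no array could be left out. Probe sets near the floor limit what can be read from dim genes.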

Other observations

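A bright probe set that carries both HSP90AA1 and LOC607470 read 2266 in KD hypoxia, 2837 in WT hypoxia, 2047 in KD normoxia and 2593 in WT normoxia. Its differences were -0.32 and -0.34 for KD minus WT in hypoxia and normoxia, and 0.15 and 0.13 for hypoxia minus normoxia in KD and WT cells. These have the signs of the HSP90AA1 probe set with 1 symbol, whose KD minus WT values were smaller in size, at -0.08 and -0.13. The other probe set with both symbols lay below the floor in all 4 arrays.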
